A study of Ovis aries with 95 samples.

Results

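Gene expression in the cortex and the brainstem of the ovine fetus was compared at 80 d of gestation, the youngest age of a series that followed 4 brain regions to the first day after birth. The comparison used the 8 arrays labelled with these regions and this age, 4 of cortex and 4 of brainstem, out of 95 arrays. The fetuses were sheep (Ovis aries), no treatment, allele, breed or sex is named for them in the labels, and their ewes were not in labor. Per the study's methods, the cortex was a section of the frontal cortex, the brainstem was dissected after the hypothalamus and hippocampi, and each age group held 1 set of twins, which the labels do not mark. The methods describe 4 fetuses of this age whose brains were dissected into all regions, but no label ties an array to an animal, so the arrays were compared as 4 against 4 samples. The p-values therefore measure the spread between these samples. The 2 regions were hybridized on different slides at every age, 3 slides for each region, so that region and slide cannot be told apart. In bulk tissue, fewer cells of a type and less RNA per cell cannot be told apart either.

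The fetal brain is patterned from front to back before its regions mature. HOX genes encode homeodomain transcription factors that are active in the hindbrain and spinal cord and silent in the forebrain. At mid-gestation the cortex is still forming its layers from newly born neurons, while neurons and glia of the brainstem are born and mature earlier. Agilent arrays with 15008 different ovine probes were hybridized with Cy3-labelled RNA, a single color, and levels are given as normalized log2 intensities, on which a difference of 1 is a 2-fold change. The scale holds for comparisons of the same gene between samples.

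The expression of 12012 genes (12482 probes) was above the negative control spots on at least 4 of the 8 arrays and was tested. With limma, 5199 genes differed at an adjusted p under 0.05, which is 43.3% of those tested. Higher expression in cortex was found for 2973 genes (24.8%) and higher expression in brainstem for 2226 (18.5%). A total of 6143 genes had an unadjusted p under 0.05. The levels of the 4 cortex and 4 brainstem arrays did not overlap for 5029 genes (41.9%). Most differences were small, with a median absolute difference of 0.28. The balance of the calls differed with the signal and normalization used. Of the calls 57.2% were higher in cortex here and 44.6% when the scanner's processed signals were divided by the 75th percentile of their array. That setting replaced both the background correction and the quantile normalization, and it moved the median difference of all genes by -0.14, from 0.06 to -0.08. Large differences lay more often on the brainstem side. A difference of at least 1 was called for 362 genes higher in cortex (3.01% of those tested) and 587 genes higher in brainstem (4.89%). A difference of at least 3 was called for 12 and 35 genes. Correlations between arrays ranged from 0.984 to 0.995 within a region and from 0.939 to 0.961 between regions. The share of spots well above background was 74.6% to 77.7% in cortex and 75.2% to 88.5% in brainstem (means 75.5% and 83.5%, exact two-sided permutation p = 0.0571, with 0.0286 as the smallest possible). The lowest brainstem value belonged to replicate 3, which also had the most spots marked as outliers (0.506%).

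**Figure D1:**
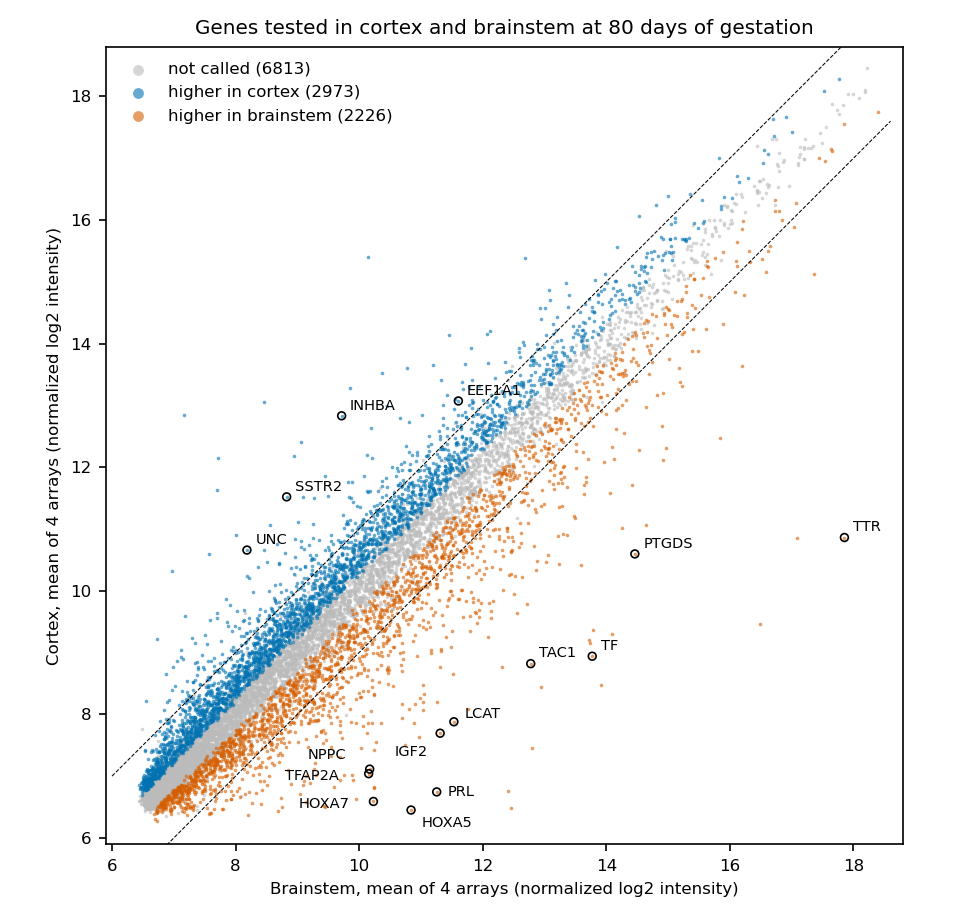
Mean normalized log2 intensity of each tested gene in brainstem (horizontal axis) and cortex (vertical axis) at 80 d, 4 arrays per region, colored by whether limma called the gene, with dashed lines at a difference of 1 (TTR in brainstem is the mean of 3 arrays). The 2973 genes called higher in cortex lie above the diagonal and mostly close to it, while TTR and TF lie far from it on the brainstem side. The points farthest above the diagonal are probes without a gene symbol.

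Among genes with a symbol, 823 were tested and 356 were called, 127 higher in cortex and 229 higher in brainstem. The 12 largest differences in each direction whose arrays did not overlap ranged from 1.06 to 3.12 in cortex and from -3.06 to -6.99 in brainstem. INHBA, which encodes the activin beta A subunit, led the genes higher in cortex. HOX genes, transferrin, prolactin, substance P precursor and genes of the choroid plexus and meninges led those higher in brainstem.

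**Figure D2:**
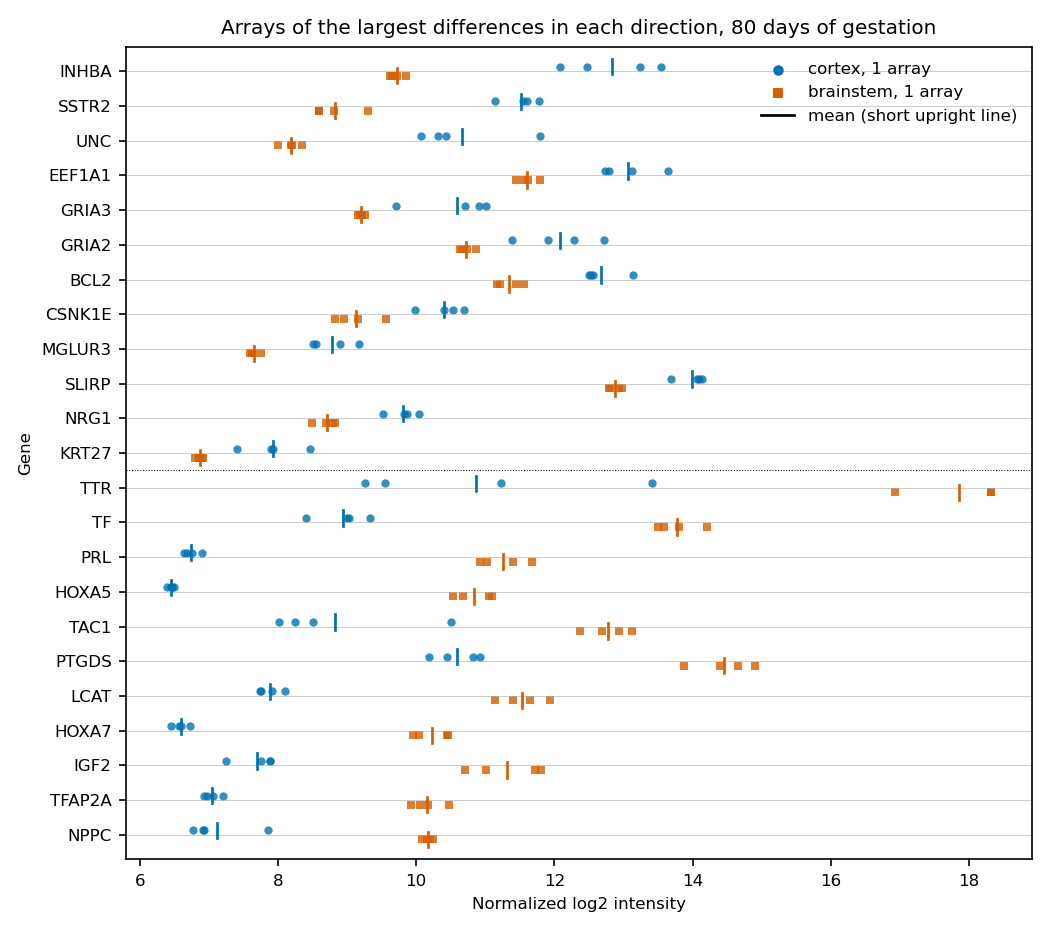
Normalized log2 intensity of each of the 4 cortex and 4 brainstem arrays (horizontal axis) for genes with a symbol that had the largest called differences in each direction, with the mean as a short upright line. The arrays of the regions do not overlap for any of these genes, as the choice of genes required, and the distances are wider for the genes higher in brainstem.

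Of 51 listed patterning genes of hindbrain and midbrain, 8 had a named probe and 7 were tested, since SHH did not pass the filter. HOXA5, GATA3, HOXC6, HOXA4 and NKX6.1 were higher in brainstem, where 18.5% of all genes were called, and ISL1 was not called. HOXA5, HOXC6, HOXA4 and NKX6.1 passed the filter through their brainstem arrays, and when all 8 arrays had to pass only 2 of the genes were tested and 1 was called. The median difference of the 7 genes was -1.87, against 0.06 over all genes. With processed signals scaled to the 75th percentile these medians were -5.31 and -0.08. The mean level of the 7 genes was 6.69 to 6.93 on the cortex arrays and 8.44 to 8.72 on the brainstem arrays. HOXA7, which was not on that list, was among the 12 largest differences. The 4 HOX genes were well above background on all 4 brainstem arrays and on at most 1 cortex array each. As they passed the filter through their brainstem arrays, this is no separate test of the region labels. HOXA5 carried the largest difference among them, and the probe that measured it is given 5′ to 3′ as the array design holds it.

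HOXA5, base 358 of its transcript: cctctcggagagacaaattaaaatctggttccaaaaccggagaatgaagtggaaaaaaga

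HOXA5 had a second probe shifted by 1 base, so its probes are not independent measures. Whether transcripts of other homeodomain genes bind these probes was not tested.

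The HOXA5 levels were 6.40, 6.50, 6.45 and 6.46 on the 4 cortex arrays and 11.09, 11.05, 10.68 and 10.53 on the brainstem arrays. No cortex array was well above background, so HOXA5 was at least 19.9-fold higher in brainstem (difference -4.39 ± 0.13 SE, limma adjusted p = 8.4e-08). HOXA7 levels were 6.57, 6.60, 6.46 and 6.73 in cortex and 10.47, 10.45, 10.05 and 9.96 in brainstem, a difference of -3.64 ± 0.13 (SE, adjusted p = 2.2e-07). In cortex HOXA7 was well above background on 1 array. HOXC6 and HOXA4 were also well above background on 1 cortex array each. Their differences were -2.09 ± 0.16 and -1.87 ± 0.09 (SE). All 4 HOX genes were well above background on every brainstem array, and each varied by less than 1 among these arrays.

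NKX6.1, a homeodomain factor of ventral progenitors and motor neurons, had levels of 7.64, 7.55, 7.61 and 7.53 in brainstem. It was not well above background on any cortex array and was at least 2.13-fold higher in brainstem (adjusted p = 4.1e-06). GATA3, a zinc finger factor of hindbrain and midbrain neurons, was 7.06-fold higher in brainstem, with 7.21, 7.32, 7.54 and 7.62 in cortex and 10.55, 10.49, 9.89 and 10.03 in brainstem. TFAP2A, a transcription factor of the neural crest and of hindbrain neurons, was 8.66-fold higher in brainstem. Its levels were 6.92 to 7.20 in cortex and 9.92 to 10.47 in brainstem (difference -3.11 ± 0.12 SE, adjusted p = 3.7e-07). NKX2.2, a ventral progenitor factor singled out after its value was seen, differed by -0.93 (adjusted p = 0.00015). Low levels are compressed by the offset of 50 added before the logarithm. With processed signals scaled to the 75th percentile, which have no such offset, all 4 HOX genes were also called higher in brainstem.

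The cortex was poorly covered by its own markers. Of 22 listed genes of neocortex and forebrain, PAX6 and NEUROD1 had a named probe, and neither was called. PAX6, a progenitor factor of the dorsal forebrain that is also active in hindbrain, fell into pairs within the cortex, with 8.12 and 8.11 on replicates 1 and 3 and 10.01 and 10.05 on replicates 2 and 4. Replicates 1 and 2 shared a slide and replicates 3 and 4 lay on a slide each. The brainstem arrays were at 10.19, 9.65, 10.24 and 10.44, and the difference was -1.05 ± 0.47 (SE, adjusted p = 0.095). Without cortex replicate 2 it was -1.37 (adjusted p = 0.0403) and without replicate 4 it was -1.38 (adjusted p = 0.0351). The fit over all 95 arrays also called PAX6 higher in brainstem. NEUROD1, a factor of newly formed excitatory neurons, was at 12.12, 11.73, 11.63 and 11.50 in cortex and at 12.62, 11.07, 13.59 and 13.61 in brainstem. Without brainstem replicate 2 its difference was -1.53 (adjusted p = 0.002), higher in brainstem. The cortex label was therefore not checked by a marker gene of its own. No probe was named for any of 9 listed genes of the cerebellum or of 38 genes of neuronal structure and synapse.

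**Figure D3:**
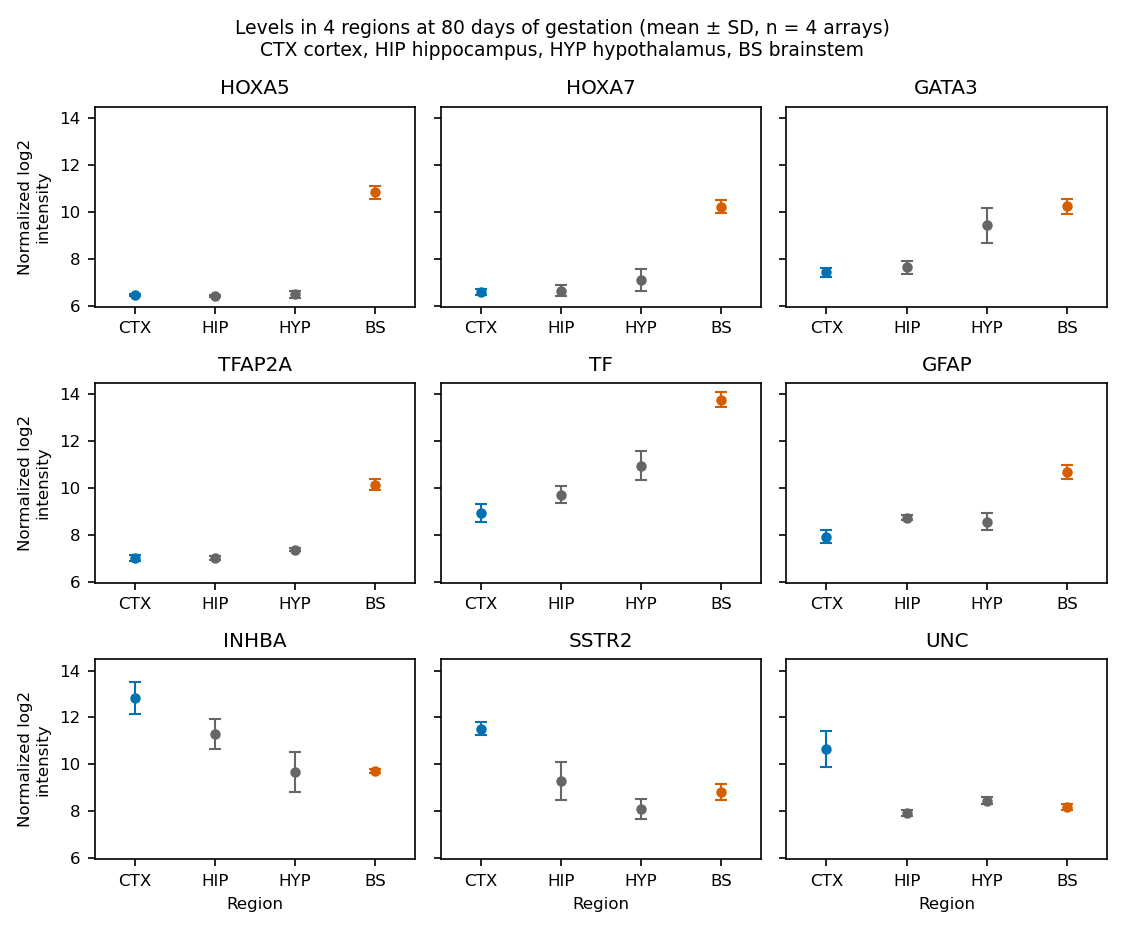
Mean ± SD of the normalized log2 intensity of 9 genes in cortex (CTX), hippocampus (HIP), hypothalamus (HYP) and brainstem (BS) at 80 d, 4 arrays per region. HOXA5 and HOXA7 stand out in brainstem alone, GATA3 is also raised in hypothalamus, and INHBA falls from cortex to hippocampus to brainstem.

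The levels of these genes in the other regions at 80 d place the difference. HOXA5 was at 6.42 ± 0.06 in hippocampus and 6.50 ± 0.14 in hypothalamus (SD, n = 4), which overlapped the cortex arrays. TFAP2A was at 7.01 ± 0.09 in hippocampus and 7.38 ± 0.07 in hypothalamus, so its brainstem arrays were above all others. GATA3 was at 7.64 ± 0.28 in hippocampus and 9.44 ± 0.74 in hypothalamus, where the highest array (10.48) lay within the brainstem range.

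Most tested glial genes were higher in brainstem. The 4 tested genes of the oligodendrocyte and myelin list (25 listed), TF, CRYAB, CD9 and CX32, were all called higher in brainstem, where 18.5% of all genes were called, with a median difference of -1.91. The mean level of the list was 8.30 to 8.64 on the cortex arrays and 10.59 to 10.87 on the brainstem arrays. TF encodes transferrin, the iron carrier that oligodendrocytes, the choroid plexus and the liver make. Its levels were 9.33, 9.0, 9.03 and 8.41 in cortex and 13.50, 13.58, 14.20 and 13.80 in brainstem, a 28.5-fold difference (-4.83 ± 0.21 SE, adjusted p = 6.9e-07). CRYAB, a small heat shock protein found in maturing oligodendrocytes, was 4.23-fold higher in brainstem. The tetraspanin gene CD9 was 3.35-fold higher. CX32, the gap junction protein of myelinating cells, was at 6.73 to 6.84 in cortex, where 2 arrays were well above background, and at 7.12 to 7.22 in brainstem. In a fit over all 95 arrays 2 of the 4 genes were called, and CD9 (adjusted p = 0.195) and CX32 (adjusted p = 0.263) were not.

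Of 8 tested genes of astrocytes and radial glia (21 listed), 6 were higher in brainstem and none in cortex, against 18.5% and 24.8% over all genes, with a median difference of -1.16. GFAP, the intermediate filament of astrocytes, was at 7.57, 8.19, 7.87 and 8.14 in cortex and at 10.94, 10.93, 10.30 and 10.60 in brainstem. This was a 6.73-fold difference (-2.75 ± 0.18 SE, adjusted p = 5.6e-06). AQP4, the water channel of astrocyte endfeet, was 3.75-fold higher in brainstem, and VIM, the filament of radial glia and many other cells, 2.67-fold. The gap junction gene of astrocytes had separate probes under the names GJA1 and CONNEXIN 43, which differed by -1.35 and -2.40. The glutamate transporter EAAT1 differed by -0.96 and CHI3L1 by -0.43. EAAT2, the other glial glutamate transporter, and the metallothionein MT3 were not called, with means of 7.21 and 7.07 and of 14.51 and 14.48.

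Neuropeptides and their receptors differed in both directions. Of 53 listed genes 29 had a named probe and 24 were tested, of which 4 were higher in cortex and 8 in brainstem, against 24.8% and 18.5% over all genes, with a median difference of -0.12. With processed signals scaled to the 75th percentile 4 were higher in cortex and 10 in brainstem. When all 8 arrays had to pass the filter, 16 were tested, 4 higher in cortex and 6 in brainstem. The counts of the main fit include INHBA in cortex and PRL in brainstem, which are also counted with the growth factor and pituitary genes. Both the precursor of somatostatin and a somatostatin receptor were called, in opposite directions. SSTR2 was at 11.78, 11.14, 11.54 and 11.61 in cortex and at 8.80, 8.60, 9.31 and 8.60 in brainstem, 6.47-fold higher in cortex (2.69 ± 0.18 SE, adjusted p = 7.4e-06). SST was at 12.96 to 13.78 in cortex and 14.05 to 14.40 in brainstem (-0.80, adjusted p = 0.005). A probe under the name SST1, singled out after its value was seen, was higher in cortex by 0.97, and the name is not explained in the array design.

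TAC1, the precursor of substance P, was 15.5-fold higher in brainstem. Cortex replicate 2 (10.51) stood above the other cortex arrays (8.02, 8.25 and 8.51), and the brainstem arrays were at 12.37 to 13.12. The related gene TAC3 differed by -0.83. NPPC, the precursor of C-type natriuretic peptide, was 8.32-fold higher in brainstem, again with cortex replicate 2 (7.85) above the other cortex arrays (6.76 to 6.92). ADCYAP1, the precursor of the pituitary adenylate cyclase-activating peptide, differed by -1.82 ± 0.16 (SE, adjusted p = 3.8e-05). GAL, which encodes galanin, and AGTR1, the angiotensin II receptor, differed by -1.17 and -1.15. OXT, the precursor of oxytocin, differed by -0.48. On the cortex side were the receptor NPY1R (1.01) and its ligand NPY (0.48, with overlapping arrays). UNC, which was not on the list and which the array design describes as urocortin, was at 10.44, 10.08, 11.80 and 10.32 in cortex and at 8.0 to 8.35 in brainstem, 5.56-fold higher in cortex (adjusted p = 0.000287). At 80 d UNC was at 7.93 ± 0.14 in hippocampus and 8.46 ± 0.14 in hypothalamus (SD, n = 4), below every cortex array. Not called were CRHR1, the receptor for corticotropin-releasing hormone and urocortin (6.90 and 6.83), POMC, GHRH, OXTR, PMCH, GRP, CALCA and 5 others.

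Of 35 listed transmitter genes 5 were tested, GRIA2 and GRM5 were higher in cortex, where 24.8% of all genes were called, none was higher in brainstem, and the median difference was 0.86. GRIA2, an AMPA receptor subunit, was at 12.29, 11.91, 12.72 and 11.39 in cortex and at 10.64 to 10.87 in brainstem (1.35 ± 0.24 SE, adjusted p = 0.0016). GRIA3, another subunit, was at 11.02, 10.71, 10.91 and 9.71 in cortex and at 9.15 to 9.26 in brainstem (1.39 ± 0.25 SE, adjusted p = 0.0017). GRIA1 showed the same order of means (10.59 and 9.74), but cortex replicate 4 (9.52) lay below every brainstem array and the difference missed the threshold (0.86, adjusted p = 0.0501). It was called in 7 of 22 alternatives, and without that array it was 1.21 (adjusted p = 0.000394). Cortex replicate 4 had the lowest cortex level of all 3 AMPA receptor genes. The metabotropic receptors MGLUR3 and GRM5 were 2.19-fold and 1.87-fold higher in cortex. MGLUR7, the scaffold gene HOMER and CAMK2, a kinase gene of synapses, which were singled out after their values were seen, differed by 0.55, 0.84 and 1.05. GRINA, which encodes a protein associated with NMDA receptors and was singled out likewise, was higher in brainstem (-0.87, adjusted p = 0.00068). The NMDA receptor gene GRIN1 was at 8.25 in both regions and the muscarinic receptor CHRM3 differed by 0.17, neither called.

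Of 28 listed genes of monoamine neurons 3 were tested. SLC6A4, the serotonin transporter, was at 7.20, 7.32, 7.16 and 7.04 in brainstem, the region that holds the raphe nuclei. It was not well above background on any cortex array and was at least 1.59-fold higher in brainstem (adjusted p = 0.00021). When all 8 arrays had to pass the filter, none of the 3 genes was tested. The call of SLC6A4 is therefore no separate test of the region labels. SLC6A2, the noradrenaline transporter, was at 6.78 and 6.81 and was not called. ADRB1, a beta adrenoceptor, had means of 6.66 and 6.92 (adjusted p = 0.0705) and was called in 4 of 20 alternatives. With processed signals scaled to the 75th percentile 2 of the 3 genes were called higher in brainstem. The median difference of the list was -1.60 there, against -0.26 in the main fit.

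Genes known from the choroid plexus and the meninges were also among those higher in brainstem. TTR, the transthyretin gene made in the brain by the choroid plexus, was the largest difference among genes with a symbol. Its levels were 13.41, 9.26, 9.55 and 11.22 in cortex and 18.32, 16.92 and 18.32 on brainstem replicates 1, 2 and 4, while the spot of replicate 3 was left out as an outlier. Replicates 1 and 4 have the same level because quantile normalization gives 1 value to probes of equal rank, and 0 spots of the brainstem arrays were marked as saturated. The fold was 127 (-6.99 ± 0.92 SE, adjusted p = 0.000474), and the difference was -7.10 with processed signals scaled to the 75th percentile. Over 22 alternatives it ranged from -6.46 to -7.84, the latter without cortex replicate 1. The spread within cortex was wider than for any other gene in the plot of the largest differences. Of 12 listed choroid plexus genes 3 were tested and 2 were called higher in brainstem, against 18.5% over all genes. Besides TTR these were IGFBP2 (-1.37, adjusted p = 0.0018), which was called, and AQP1, which was not called and not well above background on any cortex array. With processed signals scaled to the 75th percentile all 3 were called higher in brainstem, with a median difference of -2.17. The mean level of IGFBP2 and AQP1, the members measured on every array, was 10.26 to 10.44 in cortex and 10.83 to 11.48 in brainstem. IGFBP2 lost its call in the fits over the 16 arrays of 80 d (adjusted p = 0.0825) and over all 95 arrays (adjusted p = 0.296). Its probes starting at bases 1307 and 1308 differed by -0.97 and -1.77. The first was at 14.45 and 14.22 on brainstem replicates 2 and 3, within its cortex range of 13.93 to 14.66. In the hippocampus TTR varied from 11.06 to 15.90 among the 4 arrays and in the hypothalamus from 10.50 to 15.16, so the arrays of 1 region were far apart there too.

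Of 13 tested genes of meninges, fibroblasts and matrix (37 listed), 9 were higher in brainstem and none in cortex, against 18.5% and 24.8% over all genes, with a median difference of -0.72 (10 genes and -1.66 with processed signals scaled to the 75th percentile). Their mean level was 8.14 to 8.49 on the cortex arrays and 9.20 to 9.47 on the brainstem arrays. When all 8 arrays had to pass the filter, 8 of the genes were tested and 7 were called higher in brainstem (median -1.11). The other genes had passed without all arrays reaching the limit, so the count depends partly on the filter. PTGDS, the prostaglandin D synthase of the meninges, choroid plexus and oligodendrocytes, was at 10.93, 10.19, 10.45 and 10.82 in cortex and at 14.65, 14.40, 14.91 and 13.88 in brainstem (14.6-fold, adjusted p = 3.7e-06). The proteoglycan DCN was 3.04-fold higher in brainstem, the protease inhibitor TIMP3 2.55-fold, and MMP2, TIMP1 and BGN between 1.65-fold and 1.81-fold. The collagens COL1A2 and COL3A1 differed by -0.43 and -0.34. COL2A1, a cartilage and notochord collagen singled out after its value was seen, was at 8.11 to 8.40 in brainstem and not well above background on any cortex array (at least 3.22-fold higher in brainstem). The gap junction gene GJB2, found in meninges and singled out likewise, differed by -1.43. LCAT, an enzyme that esterifies cholesterol, was at 7.74 to 8.10 in cortex and 11.14 to 11.93 in brainstem, 12.6-fold higher in brainstem. Whether tissue of the choroid plexus or meninges was dissected with either region was not tested.

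Among the 3 tested pituitary genes, only PRL, which encodes prolactin, was called, higher in brainstem, against 18.5% over all genes. When all 8 arrays had to pass the filter, PRL was not tested and neither of the 2 remaining genes was called. The count for this list therefore depends on the filter. PRL was described further in the main fit. The levels of PRL were 6.69, 6.90, 6.64 and 6.76 in cortex and 11.02, 10.92, 11.40 and 11.68 in brainstem, 22.8-fold higher in brainstem (-4.51 ± 0.16 SE, adjusted p = 2.2e-07). The size of the PRL difference depended on the processing, from -4.30 to -7.83 over 21 alternatives. Both PRL probes gave the same difference (-4.49 and -4.54). Of 11 listed pituitary genes 7 had a named probe. LHB and POMC were tested and not called (9.81 and 10.07, and 9.46 and 9.14). The hormone genes CGA, FSHB and GH and the pituitary factor POU1F1 did not pass the filter and were at 6.26 to 6.61 on all 8 arrays. At 80 d PRL was at 6.71 ± 0.05 in hippocampus and 7.14 ± 0.47 in hypothalamus (SD, n = 4). The methods state that the pituitary stalk was cut to free the brain, and the part of pituitary tissue in these values was not tested. The mean level of the tested pituitary genes was 8.48 to 8.86 on the cortex arrays and 9.99 to 10.33 on the brainstem arrays. This gap rested on PRL, as LHB and POMC differed by -0.26 and 0.31.

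Of 13 erythroid genes 3 were tested and none was called (0 at an adjusted and 1, AHSP, at an unadjusted p under 0.05 by limma), with a mean level of 8.40 to 8.72 on the cortex arrays and 8.51 to 9.15 on the brainstem arrays. AHSP, the alpha hemoglobin chaperone, was at 7.46 ± 0.33 in cortex and 8.17 ± 0.59 in brainstem (SD, n = 4, adjusted p = 0.066), and 3 alternatives called it, among them the fit without brainstem replicate 1 (-0.97, adjusted p = 0.00768). The median of the erythroid genes was -0.20. With processed signals scaled to the 75th percentile it was -1.45 and 2 of the 3 were called higher in brainstem, among them the erythropoietin receptor EPOR (-1.45, adjusted p = 0.0401). Of 20 tested vascular genes 1 was higher in cortex and 4 in brainstem (24.8% and 18.5% over all genes), with a mean level of 8.01 to 8.16 on the cortex arrays and 8.11 to 8.26 on the brainstem arrays. The median difference was -0.04, and it was -0.60 with 9 genes higher in brainstem in that setting. The endothelial genes PECAM1, KDR and TIE1 differed by -0.04 each and were not called. Of the vascular genes 0 and 1 were called in the fit over all 95 arrays. Of the barrier genes, the transporter ABCG2 was 1.92-fold higher in cortex, while the glucose transporter genes GLUT-1 and SLC2A3 and the junction genes OCLN and CLDN1 were 1.35-fold to 1.74-fold higher in brainstem. ABCG2, GLUT-1 and OCLN lost their calls in the fit over the 16 arrays of 80 d (adjusted p = 0.628, 0.496 and 0.273). Of 5 tested muscle genes TPM1 was 2.00-fold higher in brainstem, where 18.5% of all genes were called, and the other 4, MYOD1 and TNNC2 among them, were not called (mean level of the list 7.86 to 7.97 and 8.13 to 8.16). The median of the muscle list was 0.01, and it was -0.56 with 3 genes higher in brainstem with processed signals scaled to the 75th percentile.

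Genes of microglia and other myeloid cells were higher in brainstem or not called. Of 9 tested genes (28 listed) 4 were higher in brainstem, where 18.5% of all genes were called, with a median difference of -0.16 (7 genes and -1.28 with processed signals scaled to the 75th percentile, and 4 of 5 genes and -1.26 when all 8 arrays had to pass the filter) and a mean level of 7.35 to 7.79 on the cortex arrays and 8.09 to 8.26 on the brainstem arrays. FCER1G, a receptor subunit of myeloid cells, was at 7.98, 8.55, 7.96 and 8.74 in cortex and at 10.03 to 10.46 in brainstem (3.82-fold, adjusted p = 5.4e-05). The protease CTSS and the integrin ITGB2 were 3.35-fold and 2.39-fold higher in brainstem. In all 3 genes cortex replicates 2 and 4 lay above replicates 1 and 3, the split that PAX6 showed. The monocyte receptor CD14 differed by -0.28, and the integrin ITGAM, the receptors TLR2 and TLR4 and the ligands CD80 and CD86 were not called. Of 6 tested lymphocyte genes CD247 and CD5 were higher in cortex (0.70 and 0.27), where 24.8% of all genes were called. CD5 lost its call in 12 of 22 alternatives, and neither was called in the fit over all 95 arrays (adjusted p = 0.154 and 0.622). The T cell genes CD3E and CD3D differed by -0.12 and 0.02 and were not called, and CD4 and CD28 did not pass the filter.

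Interferon response genes were higher in brainstem or not called. Of 8 tested genes of the MHC and interferon list (33 listed) 5 were called, all higher in brainstem (18.5% over all genes), with a median difference of -0.51 (8 genes and -1.12 with processed signals scaled to the 75th percentile) and a mean level of 8.22 to 8.39 on the cortex arrays and 8.89 to 9.01 on the brainstem arrays. ISG15 was at 8.20 to 9.20 in cortex and 9.74 to 10.81 in brainstem (2.94-fold, adjusted p = 0.0014). MX1 and MX2 were 2.47-fold and 1.52-fold higher in brainstem. The MHC gene OVAR was 1.80-fold higher with overlapping arrays. The fit over all 95 arrays called 0 of the 8 genes, ISG15, MX1, MX2 and OVAR among them (adjusted p = 0.146, 0.301, 0.486 and 0.392). Of 11 tested lysosomal genes 6 were higher in brainstem and 1 in cortex, against 18.5% and 24.8% over all genes, with a median difference of -0.44. The fit over all 95 arrays called 2 and 0 of them, LGMN not among them (adjusted p = 0.109). With processed signals scaled to the 75th percentile 4 were higher in brainstem, none in cortex, and the median was -0.25. NPC2, a cholesterol carrier, was 2.05-fold higher in brainstem and the protease LGMN 1.59-fold.

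**Figure D4:**
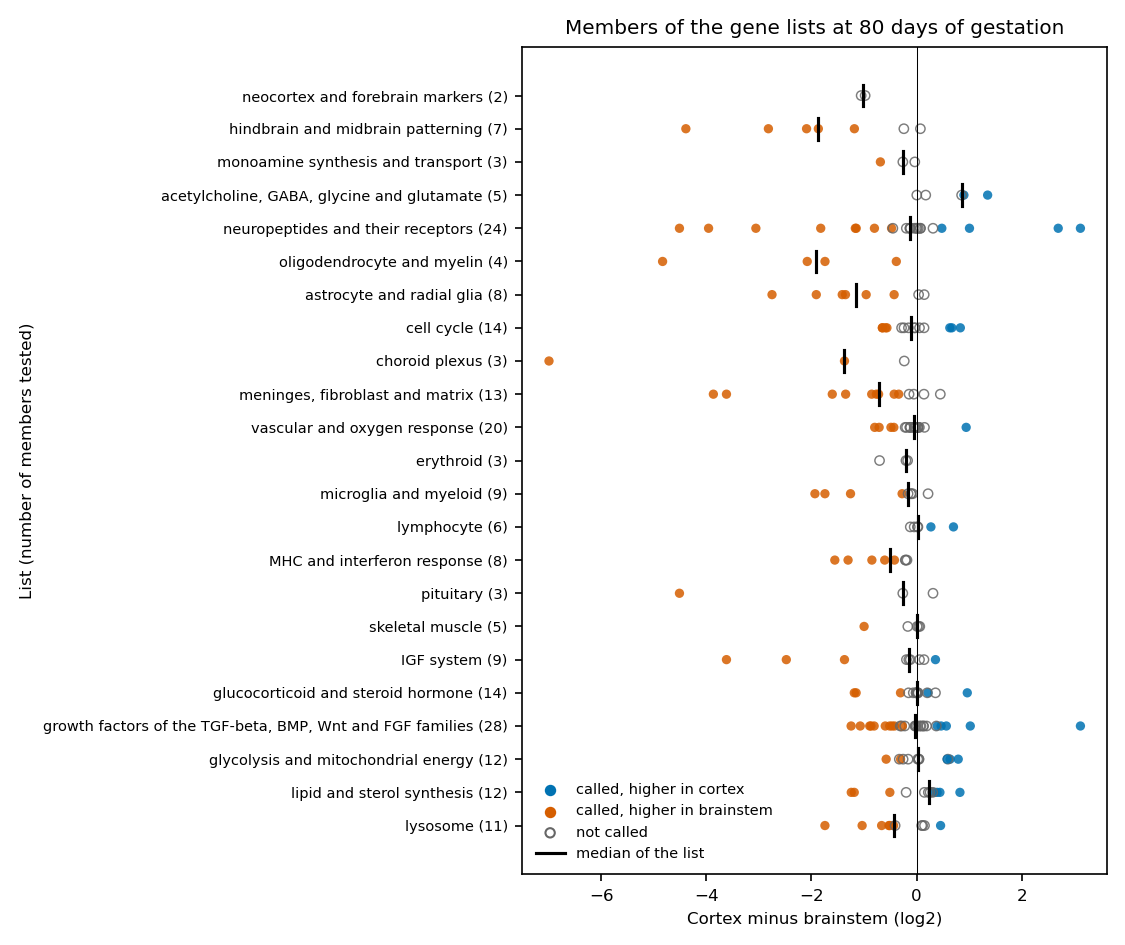
Cortex minus brainstem difference (log2, horizontal axis) of every tested member of the gene lists at 80 d, filled where limma called it and open where it did not, with the median of each list as an upright line. The medians of the hindbrain, glial, choroid plexus and meningeal lists lie on the brainstem side. So do those of the neocortex and forebrain list (-1.02, 2 genes, neither called), the MHC and interferon list (-0.51) and the lysosome list (-0.44). That of the transmitter list lies at 0.86 on the cortex side, and most other medians lie nearer 0.

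Growth factor genes were called in both directions. Of 48 listed genes of the TGF-beta, BMP, Wnt and FGF families 28 were tested, 5 were higher in cortex and 10 in brainstem, against 24.8% and 18.5% over all genes, and the median difference was -0.03 (3 and 12 genes and -0.52 with processed signals scaled to the 75th percentile, 6 and 4 of 16 when all 8 arrays had to pass the filter). The fit over all 95 arrays called 2 and 8 of the 28. The called activin genes were higher in cortex. INHBA was at 13.23, 12.08, 13.55 and 12.47 in cortex and at 9.85, 9.65, 9.63 and 9.73 in brainstem, 8.67-fold higher in cortex (3.12 ± 0.28 SE, adjusted p = 3.8e-05). The receptors ACVR1, ACVR2A and ACVR2B were higher in cortex by 1.02, 0.47 and 0.39. FST, which encodes the activin antagonist follistatin, INHA and ACVR1B were not called (-0.31, -0.03 and 0.08). Of the TGF-beta ligands, TGFB2 was higher in cortex by 0.57 (adjusted p = 0.0177) and TGFB1 higher in brainstem (-0.47, adjusted p = 0.00595).

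Of the BMP ligands BMP4, BMP6 and BMP7 were higher in brainstem, and BMP2 and BMP15 did not pass the filter. BMP4 was at 6.68 to 6.89 in cortex and 7.90 to 8.32 in brainstem (-1.25 ± 0.11 SE, adjusted p = 3.0e-05). BMP6 and BMP7 differed by -1.07 and -0.87, and the receptor BMPR1B by -0.81. The FGF genes followed with FGFR1 (-0.89), FGF1 (-0.60), FGF10 (-0.51) and FGF7 (-0.27). FGFR3 was not well above background on any cortex array and was at least 1.32-fold higher in brainstem. WNT-5A, singled out after its value was seen, differed by -1.08. Of the signal transducers SMAD2, SMAD3, SMAD4 and SMAD7, none was called. NRG1, a neuregulin, was 2.16-fold higher in cortex (9.52 to 10.04 and 8.50 to 8.83).

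Of 9 tested genes of the insulin-like growth factor system, IGF2, IGFBP6 and IGFBP2 were higher in brainstem and IGF1R in cortex, against 18.5% and 24.8% over all genes, with a median of -0.15. The fit over all 95 arrays called 2 and 0 of them. With processed signals scaled to the 75th percentile 5 were higher in brainstem, none in cortex, and the median was -1.05. IGF2, a growth factor made by meninges and choroid plexus in the brain, was at 7.89, 7.25, 7.76 and 7.89 in cortex and at 11.80, 11.73, 11.01 and 10.71 in brainstem, 12.3-fold higher in brainstem (adjusted p = 9.0e-06). Its 2 probes differed by -2.38 and -4.85. IGFBP6, a binding protein with preference for IGF2, was at 10.37 to 10.86 in cortex and 13.04 to 13.08 in brainstem (5.57-fold, adjusted p = 6.6e-07). The receptor IGF1R differed by 0.36 (adjusted p = 0.038) and lost its call in 10 of 22 alternatives. A probe under the name IGFR1, which the array design describes as the same receptor and which was not on the list, was higher in cortex by 0.76 (adjusted p = 0.000135). IGF1 was not called (7.20 and 7.35).

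Of 14 tested genes of steroid and prostaglandin action 2 were higher in cortex and 3 in brainstem, against 24.8% and 18.5% over all genes, with a median of 0.00 (1 and 5 genes and -0.55 with processed signals scaled to the 75th percentile). When all 8 arrays had to pass the filter, 8 genes were tested, with 1 higher in cortex and 1 in brainstem. Both enzymes that interconvert cortisol and cortisone were higher in brainstem. HSD11B1, which activates, was at 8.08 to 8.38 in cortex and 9.25 to 9.61 in brainstem (2.22-fold, adjusted p = 5.2e-05). HSD11B2, which inactivates, was at 7.40, 6.99, 8.70 and 7.48 in brainstem and not well above background on any cortex array, at least 2.2-fold higher in brainstem. The glucocorticoid receptor NR3C1 was not called (6.83 and 6.82). The prostaglandin F receptor PTGFR was 1.95-fold higher in cortex (adjusted p = 5.5e-05) and the cyclooxygenase PTGS2 1.16-fold, while PTGER4 was at least 1.24-fold higher in brainstem.

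Cell cycle genes were called in both directions. Of 14 tested genes (40 listed) 3 were higher in cortex and 4 in brainstem, with a median of -0.10. Over all genes 24.8% and 18.5% were called in these directions. The fit over all 95 arrays called 0 and 1 of the 14 genes, and ODC1 (adjusted p = 0.42), CDKN1B (0.0673) and TYMS (0.153) were not called there. On the cortex side were ODC1, the first enzyme of polyamine synthesis (0.83), the inhibitor CDKN1B (0.67) and MYC (0.63). Among those on the brainstem side were TYMS (-0.65), CDK2 (-0.65) and CCNA2 (-0.59). CDK1, PCNA, AURKA, CCND2 and CDK4 were not called. For TYMS, CDK2, CCNA2, CDK1 and PCNA cortex replicates 2 and 4 again lay above replicates 1 and 3. CDK2 lost its call in 7 of 22 alternatives. CDKN1C, another inhibitor, singled out after its value was seen, was 3.12-fold higher in brainstem.

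Of 12 tested energy genes GAPDH, ATP5PD and IDH1 were higher in cortex (0.79, 0.64 and 0.58) and ALDOA and SLC25A4 in brainstem (-0.58 and -0.31), close to the 24.8% and 18.5% over all genes. None of the 12 was called in the fit over all 95 arrays (adjusted p = 0.223, 0.0871 and 0.241 for GAPDH, ATP5PD and IDH1). The GAPDH value rested partly on cortex replicate 3 (9.68, the other cortex arrays at 8.60 to 8.72). Of 12 tested lipid genes 4 were higher in cortex and 3 in brainstem, near the 24.8% and 18.5% over all genes, and 1 and 2 in the fit over all 95 arrays. Among those on the cortex side were ACACA (0.82), SQLE (0.39) and SCD (0.34), which make fatty acids and sterols. APOA1, FABP5 and LPL were higher in brainstem, APOA1 2.37-fold (not called in the fit over all 95 arrays, adjusted p = 0.36), the fatty acid carrier FABP5 2.28-fold and LPL at least 1.40-fold. The median of the lipid list was 0.24, and -0.02 with processed signals scaled to the 75th percentile. In FABP5 cortex replicates 2 and 4 (14.14 and 13.89) lay above replicates 1 and 3 (12.93 and 13.08).

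Of the remaining genes among the 12 largest on the cortex side, BCL2, which blocks apoptosis, was at 13.13, 12.54, 12.50 and 12.55 in cortex and at 11.18 to 11.56 in brainstem (2.52-fold, adjusted p = 0.00016). The kinase CSNK1E was 2.43-fold higher in cortex and SLIRP, a mitochondrial RNA-binding protein, 2.17-fold. KRT27, a keratin, was at 7.41 to 8.47 in cortex and 6.79 to 6.91 in brainstem. EEF1A1, the translation elongation factor, was 2.76-fold higher in cortex as the mean of 3 probes, of which 2 differed by 2.09 and 2.15 and the brightest by 0.16 (adjusted p = 0.566 for that probe alone). EEF1A1 has many near-identical copies, and which of them each probe binds was not tested.

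The same comparison at the other ages used other animals and the same slides of each region. In a fit over 48 arrays, the number of genes called was 4601 at 80 d, 4543 at 100 d, 4497 at 120 d, 4947 at 130 d, 5659 at 145 d and 5553 in the newborn. In that fit 2699 genes were higher in cortex at 80 d, of which 1131 (41.9%, and 37.6% of the 3010 at 145 d) were also called higher in cortex at 145 d and 386 were called in the opposite direction. Of the 1902 genes higher in brainstem at 80 d, 813 (42.7%, and 30.7% of the 2649 at 145 d) were called so at 145 d and 254 in the opposite direction. The difference itself changed between 80 d and 145 d for 4165 genes (limma, adjusted p under 0.05).

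HOXA5 and HOXA7 were higher in brainstem at every age. The brainstem mean of HOXA5 was 10.84 at 80 d, 10.77 at 100 d, 9.55 at 120 d, 9.44 at 130 d, 9.35 at 145 d and 9.08 in the newborn, with cortex means of 6.36 to 6.47 throughout. HOXA5 was not well above background on the cortex arrays of 80 d, so its fold at that age is given as at least 19.9. HOXA7 differed by -3.64 at 80 d and -3.08 at 145 d, a change that was not called (adjusted p = 0.175). SSTR2 stayed higher in cortex by 2.69 to 2.96 at all ages. GRIA2, CSNK1E, NRG1, KRT27, TTR and NPPC also had differences at 145 d in the direction of 80 d, without a called change. MGLUR3 moved farther apart, from 1.13 at 80 d to 2.41 at 145 d (adjusted p of the change = 1.2e-05).

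Other differences of 80 d closed with age. INHBA fell from 3.12 at 80 d to 2.33 at 100 d, 1.01 at 120 d, 0.15 at 130 d and -0.31 at 145 d, as the cortex mean went from 12.83 to 10.87 and the brainstem mean from 9.72 to 11.18. PTGDS went from -3.87 to -0.47 while both regions rose, the cortex from 10.60 to 16.24 and the brainstem from 14.46 to 16.71. TF was farthest apart at 100 d (-6.70) and was at -2.28 at 145 d, with a cortex mean that went from 8.94 at 80 d to 15.22. PRL went from -4.51 to -0.97 (not called at 145 d, adjusted p = 0.141) and IGF2 from -3.62 to -0.24 (adjusted p = 0.718). BCL2 and SLIRP turned, from 1.33 to -0.62 and from 1.12 to -0.70, and both were called higher in brainstem at 145 d. GRIA3 went from 1.39 to -0.38 (not called at 145 d, adjusted p = 0.202) while the change of GRIA2 was not called (adjusted p = 0.603).

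**Figure D5:**
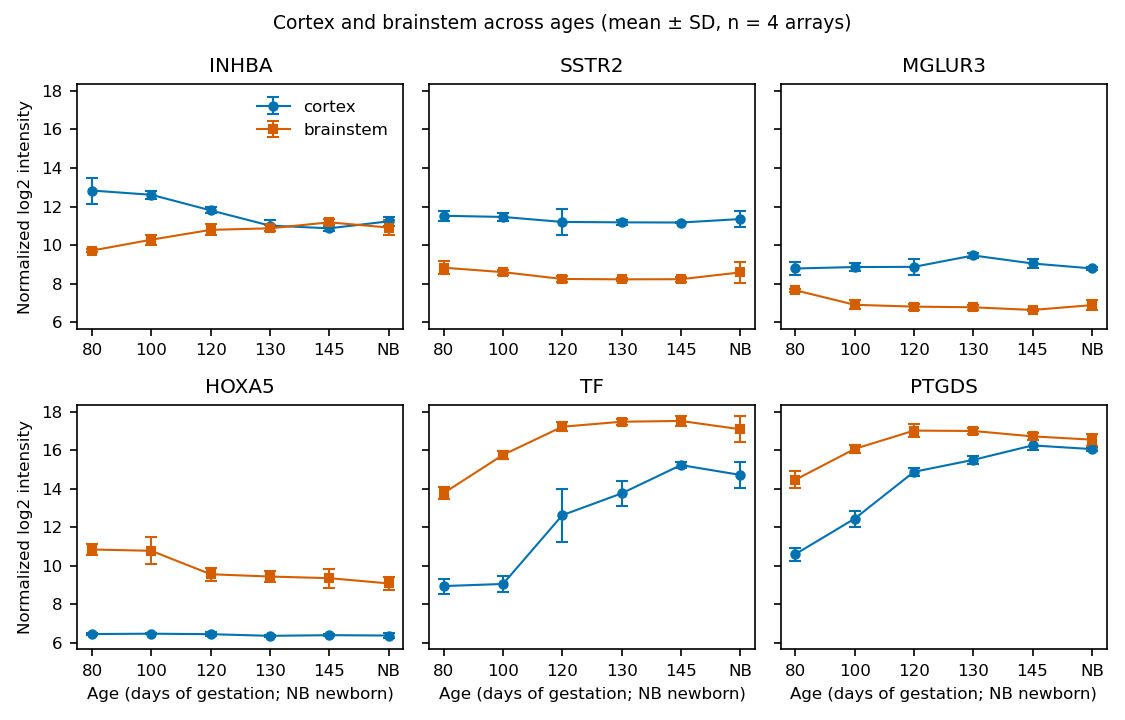
Mean ± SD of the normalized log2 intensity of INHBA, SSTR2, MGLUR3, HOXA5, TF and PTGDS in cortex and brainstem at 80, 100, 120, 130 and 145 d of gestation and in the newborn (NB), 4 arrays per point. The lines of SSTR2 and HOXA5 stay apart, those of INHBA meet at 130 d, and those of TF and PTGDS approach each other as the cortex rises.

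Most probes of the array carry no gene symbol (13452 of 15008), and some of the largest differences were among them. The probe FE024540, named after an expressed sequence, was at 12.32 to 13.24 in cortex and 6.99 to 7.30 in brainstem, 51.2-fold higher in cortex (adjusted p = 2.2e-07). EE836357 was 38.2-fold higher in cortex. Both differences were larger than that of INHBA. On the brainstem side CN824012 was 130-fold higher (8.23 to 10.32 and 16.23 to 16.88) and CF117008 at least 60.7-fold higher, with no cortex array well above background. These 4 probes were singled out after their values were seen.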

How the data were processed

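RNA from each region was labelled with Cy3 and hybridized to Agilent ovine arrays with 60-base probes, 8 arrays per slide. The deposited scanner files hold spot intensity values, extracted per the file headers with Agilent Feature Extraction 10.1.1.1. The authors also deposited a table of log2 normalized intensities, which served as an alternative. From the scanner values, the mean signal was corrected for the local background by normexp (offset 50), log2 transformed and quantile normalized over all 95 arrays with limma 3.58.1 in R 4.3.3. Control spots were removed, spots marked as outliers were treated as missing, and probes of the same gene name were averaged. Probes had to reach 1.1 times the 95th percentile of the 77 negative control spots on 4 or more of the 8 arrays. Cortex and brainstem were compared with lmFit and eBayes, and p-values were adjusted by Benjamini-Hochberg over all genes, with a threshold of 0.05. The procedure was tested on simulated data. Precision is limited by the number of arrays.

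Of 15008 probes, 1556 had a gene symbol: 703 were matched to the RefSeq table of ARS-UI_Ramb_v3.0 through an accession, 497 through a symbol, 125 through a gene identifier and 20 through a synonym, and 211 kept the name in the array files. The probe sequence shown was read from the scanner files. Some genes and sequences are not reported here. Where a gene was not well above background on any array of a region, the fold is a lower bound: the mean of the brighter region over the mean of, per array, the higher of the lowest signal well above background and the gene's own value. Named genes were the 12 largest called differences in each direction with a symbol and no overlap of arrays, and the 4 largest of each gene list (all members of lists with up to 6). Other list members are given with the list, and further genes were singled out after their values were seen. Some genes are members of several lists and are counted in each. The members and lists were chosen with earlier results of these data known. Alternatives changed the background offset, scaling, filter, probe rule, slide or replicate block, arrays in the fit and each array in turn.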

Additional observations from a re-analysis of the deposited data

Results flagged for a closer look

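Among the named genes, 197 groups of 4 arrays of 1 region were examined for an array apart from the rest, and 13 had one by Dixon's criterion, where chance gives about 1 in 20. In cortex, replicate 1 was apart for BCL2 (13.13, others 12.50 to 12.55) and SLIRP (13.69, others 14.06 to 14.13). Cortex replicate 2 was apart for NPPC (7.85, others 6.76 to 6.92) and NPC2 (10.99, others 10.55 to 10.60). Cortex replicate 3 was apart for ABCG2 (12.04, others 12.34 to 12.39) and GAPDH (9.68, others 8.60 to 8.72), and replicate 4 for CD5 (7.0, others 7.26 to 7.29) and LHB (10.27, others 9.62 to 9.71). In brainstem, replicate 3 was apart for ADRB1 (6.82, others 6.95 to 6.97), CD3E (6.99, others 7.21 to 7.22) and ACACA (7.55, others 7.14 to 7.16). Brainstem replicate 1 was apart for OVAR (11.19, others 11.80 to 11.87) and replicate 2 for DCN (12.40, others 11.66 to 11.77).

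The difference between cortex and brainstem changed from 80 d to 145 d for 15 of the genes with the largest differences that are reported here, by limma's test of the change itself over 48 arrays. On the cortex side the change was -3.42 for INHBA, -1.95 for BCL2, -1.82 for SLIRP, -1.77 for GRIA3, -1.71 for EEF1A1, -1.27 for UNC and 1.28 for MGLUR3. On the brainstem side it was 3.54 for PRL, 3.40 for PTGDS, 3.38 for IGF2, 2.55 for TF, 2.46 for TAC1, 2.36 for TFAP2A, 2.34 for LCAT and 1.43 for HOXA5, which was not well above background on the cortex arrays of 80 d. MGLUR3 alone of the 15 moved farther apart.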

How the results depend on the processing

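The number of genes called moved by more than 1.5 times in the fits that shared the spread of more groups, to 3113 over the 16 arrays of 80 d (1621 higher in cortex) and to 1933 over all 95 arrays (960 and 973), and the cause was not tested. Asking for a difference of at least 1 left 949 (362 and 587). Leaving out each array in turn gave 4375 to 5327 calls, 2484 to 3056 in cortex and 1891 to 2271 in brainstem. With slide as a random block 4294 genes were called, and 4241 with the mean of each slide as 1 sample, an alternative chosen after seeing the data. Replicate numbers gave no sign of pairing, as arrays with the same number had correlations of -0.175 to 0.0665 between their deviations. Arrays with different numbers reached 0.331 (cortex 1 and brainstem 3), 0.318 (cortex 3 and brainstem 4) and 0.245 (cortex 4 and brainstem 1). Whether these arrays came from the same fetus was not tested, and no fit paired them. The replicate block called 4596 genes (2601 and 1995). Over 22 alternatives, the 99 named genes gave 2151 values, of which 2033 kept the direction and the side of the threshold, 24 changed sign without a call in either setting, 67 lost a call, 26 gained one and 1 reversed, TNNC2 from 0.01 to -0.56 (adjusted p = 0.0217) with processed signals divided by the 75th percentile of their array. In that setting the medians of the lymphocyte, muscle, lipid and glucocorticoid lists also changed sign. CDK2, CD14, CD5 and IGF1R lost their calls under the replicate block. When all 8 arrays had to pass the filter, fewer members of most lists were tested. Higher in brainstem were then 3 of 3 oligodendrocyte genes, 6 of 7 genes of astrocytes and radial glia and 2 of 2 choroid plexus genes. In the MHC and interferon list it was 5 of 6. Probes near background limit what can be seen in cortex, where 94 kept probes reached the limit of the filter on no array.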

Other observations

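Genes of plasma proteins, singled out after their values were seen, varied among the arrays of a region. AHSG, which encodes fetuin, was at 11.33, 7.0, 7.92 and 7.66 in cortex and at 11.30, 12.78, 15.90 and 15.66 in brainstem, a difference of -5.43 ± 1.18 (SE, adjusted p = 0.00503). ALB, the albumin gene, was at 8.16, 7.36, 7.49 and 7.48 in cortex and at 8.32, 8.50, 11.21 and 10.88 in brainstem. Both genes were highest on brainstem replicates 3 and 4, and on cortex replicate 1 within the cortex.

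Genes of apoptosis, chosen likewise, were called in both directions. The effector BAX (0.96) and its inhibitor BCL2L1 (0.28) were higher in cortex, while BAK (-0.25) and the death receptor FAS (-0.27) were higher in brainstem. Of 16 tested genes of ribosomal proteins 5 were higher in cortex (among them RPL13A, RPL34, RPS26 and RPSA) and none in brainstem, with a median difference of 0.21, where 24.8% of all genes were higher in cortex and 18.5% in brainstem.

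Several other genes with a symbol, also chosen after their values were seen, were higher in brainstem without overlap. PYGM, the glycogen phosphorylase of muscle that astrocytes also use, was 4.51-fold higher and the tubulin gene TUBA4A 4.40-fold. ANXA2 and LGALS1, which many non-neuronal cells express, were 4.19-fold and 3.57-fold higher. The glutamate dehydrogenase GLUD1 was 3.48-fold higher and DIRAS3 3.03-fold. CAST, the calpain inhibitor, differed by -0.67.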
